A study of Homo sapiens with 4 samples.

Results

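Polycomb repression and DNA methylation are systems that keep genes silent through cell division. They were followed here through 10 genes, namely EZH2, SUZ12, EED and BMI1 of the Polycomb group, the DNA methyltransferase genes DNMT1, DNMT3A and DNMT3B with their partner UHRF1, and the demethylation enzyme genes TET1 and TET2. The probe sets were all those whose platform annotation gave one of these symbols alone, which came to 17 of 54675 probe sets and covered 9 of the 10 genes. The count per gene was 3 for SUZ12, DNMT3A and TET2, 2 for EED and TET1, and 1 for EZH2, DNMT1, DNMT3B and UHRF1. BMI1 had none: the 1 probe set that lists it also lists the readthrough gene COMMD3-BMI1, so BMI1 was not analysed here. For SUZ12, 1 further probe set was shared with the pseudogene SUZ12P1 and was left out.

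RNA came from SW480, an established human colorectal adenocarcinoma line, grown in Dulbecco's medium with fetal bovine serum and measured on Affymetrix arrays, 1 array per sample. There were 2 arrays of cells with HOXA5 knock-down and 2 of cells with HOXA5 overexpression, both made by transduction of the same line. HOXA5 is a homeobox transcription factor, and the title of the series concerns its action on Wnt signalling and stem cell traits. No untransduced or vector-only cells were among the 4 samples, so each difference below is overexpressing minus knock-down and cannot be assigned to either manipulation. The labels give no vector, time after transduction, clone or pool, and do not say whether replicates were separate cultures, so the p-values cover the spread among these 4 arrays, part of which could be technical.

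Values were log2 expression from RMA, a method that corrects background, equalises the distributions of the arrays and summarises each probe set. Array medians lay between 5.77 and 5.81, and arrays correlated at 0.997 within both groups and at 0.991 to 0.993 between them. RMA gives no detection call, and precision is limited by there being 2 arrays in each group. Of 12 measured colorectal epithelial markers, 6 (CDX1, CDX2, GPA33, KRT8, KRT18 and VIL1) stood above the array median on all 4 arrays. EPCAM and KRT19 did so only in the overexpressing arrays: EPCAM rose from 3.73 to 8.78 (limma adjusted p = 5.44e-05) and KRT19 from 4.70 to 9.08. The summed level of the 12 markers was 78.7 to 79.6 in the knock-down and 89.5 to 89.7 in the overexpressing arrays, and the part of this shift in the results below was not tested. The leukocyte marker PTPRC was below the array median throughout. Above it on all arrays were 1 of 5 leukocyte (summed level 25.1 to 25.4 against 24.6 to 24.8), 3 of 8 fibroblast (47.1 to 47.3 against 46.5 to 47.5) and 4 of 5 endothelial markers (28.7 to 28.9 against 28.5 to 29.0). These levels are of the brightest probe set of each marker; on weaker ones the fibroblast marker LUM rose by 2.16, from a mean of 2.57 to 4.73 (limma adjusted p = 7.93e-04; 0.0576 to 0.0889 without any 1 array), and the epithelial marker VIL1 rose by 0.78 and 0.85. The part of these shifts in the results was not tested either. As for the counts above the median, 13045 of all 19775 genes had a brightest probe set whose mean lay at or above the median level. Such a count therefore does not show that a marker list was expressed. The manipulated gene was not analysed here, so no check of the labels by its level was made.

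As background, Polycomb repressive complex 2 (PRC2) is built from the methyltransferase EZH2, the scaffold SUZ12 and the histone-binding subunit EED, and it methylates histone H3 at the lysine called K27. Polycomb repressive complex 1 (PRC1), to which BMI1 belongs, ubiquitinates histone H2A at many of the same genes. DNMT3A and DNMT3B place new methyl groups on cytosine in CpG dinucleotides. DNMT1, guided by UHRF1 to newly copied DNA, renews the pattern after replication, and the TET enzymes oxidise methylcytosine as a step towards its removal. In the colon these systems are known for silencing developmental genes in normal tissue and for the abnormal promoter methylation of tumours.

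Overexpressing and knock-down cells were first compared over all of these genes. None of the 17 probe sets passed an adjusted p of 0.05 in limma, whereas 1.97% of the 54613 probe sets tested did so (1.36% higher and 0.613% lower in the overexpressing arrays). At an unadjusted p under 0.05 there were 2, one of DNMT3A and the one of DNMT3B, against 14.6% of all probe sets. In 4 probe sets both overexpressing arrays lay above both knock-down arrays and in 4 both lay below, while the other 9 overlapped; over all probe sets 43.1% did not overlap (18.7% higher and 24.5% lower in the overexpressing arrays). The differences ran from -0.43 (DNMT3B) to 0.69 (DNMT3A), with 7 below 0 and 10 above. Their median was 0.02, beside -0.02 over all probe sets, and the median size was 0.12, beside 0.10.

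How firmly a small difference can be stated follows from the intervals. For 15 of the 17 probe sets the 95% interval of the difference lay wholly within 0.5 on the log2 scale in either direction, the exceptions being DNMT3B and 1 probe set of DNMT3A. The share of all probe sets with such an interval was not analysed here. Of the 17, 8 lay below the median of every array, where background could hide a difference of transcript. A narrow interval there does not bound the change of the transcript. The smallest difference called among all probe sets was 0.48; this describes the fit and is not a limit of detection for each gene. A p that misses the threshold does not show that the levels were equal. As RNA was taken from whole cultures, less of a transcript in every cell and fewer cells with it cannot be told apart.

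**Figure D1:**
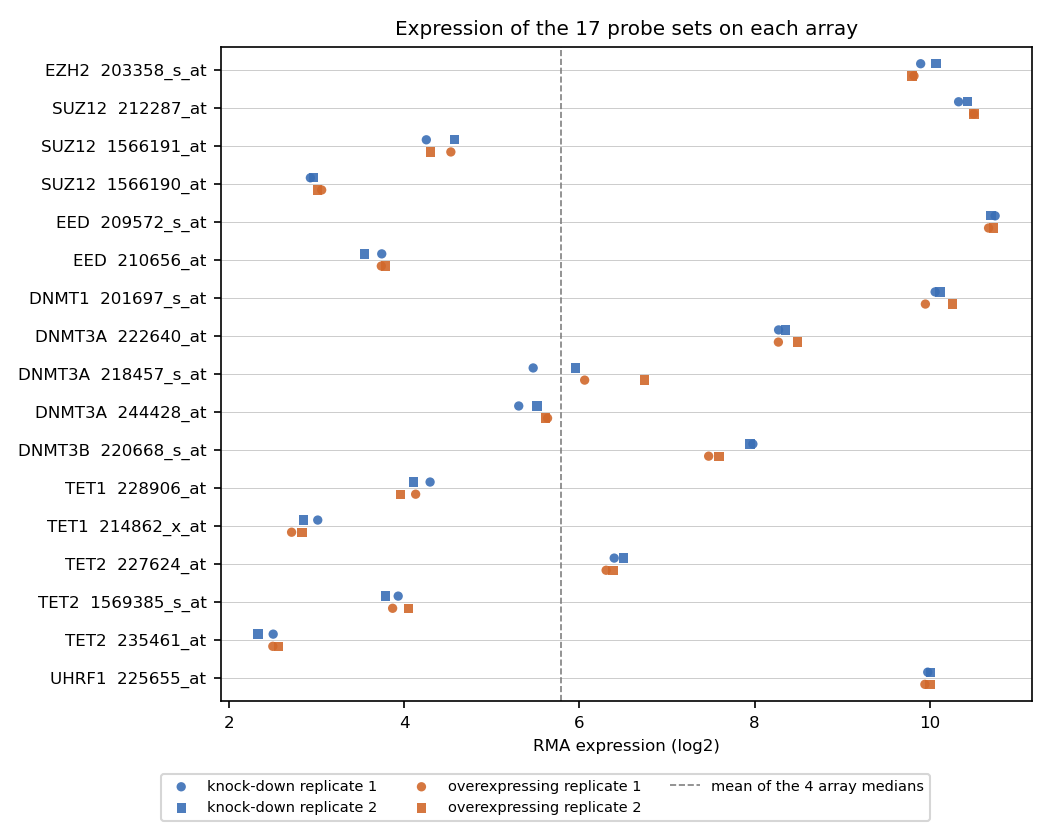
RMA log2 expression (horizontal axis) of the 17 probe sets (rows, with the gene and probe set name) on each of the 4 arrays; blue is knock-down, orange is overexpressing, circles are replicate 1, squares replicate 2, and the dashed line is the mean of the array medians. For most rows the 4 points lie close together, with 8 probe sets below the median of every array, 8 above it and 1 of DNMT3A on both sides.

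**Figure D2:**
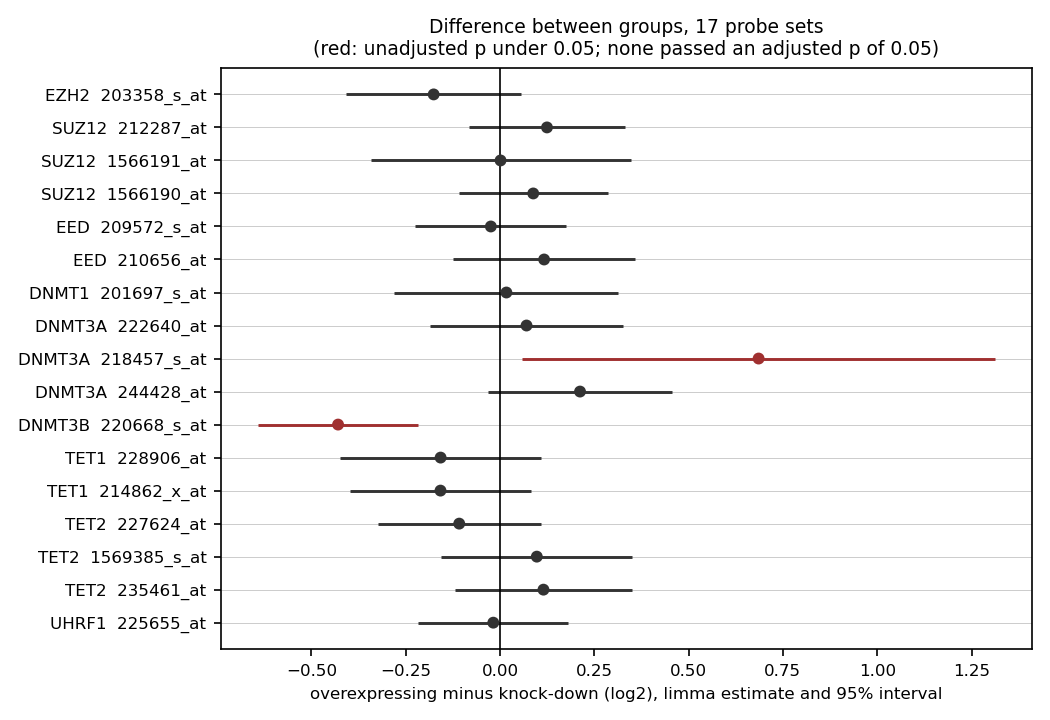
Difference between the groups (log2, overexpressing minus knock-down) of each probe set, as a point with the limma 95% interval. Red marks an unadjusted p under 0.05, which the 218457_s_at probe set of DNMT3A (0.69) and the probe set of DNMT3B (-0.43) had; the other 15 intervals include 0.

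The 3 core subunits of PRC2 were each bright on 1 probe set, and these differed by 0.18 or less. EZH2, the catalytic subunit, stood at 9.90 and 10.07 with knock-down and at 9.82 and 9.80 in the overexpressing arrays. Both overexpressing values were below both knock-down values, by a difference of -0.18 ± 0.09 (SE; 95% interval -0.41 to 0.06; limma adjusted p = 0.476). The gap between the knock-down arrays, at 9.90 and 10.07, was as wide as that difference. Without knock-down replicate 2 the difference was -0.09 and without knock-down replicate 1 it was -0.26.

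SUZ12, the scaffold without which the complex falls apart, gave 10.33 and 10.43 against 10.50 and 10.50 on its bright probe set 212287_at. The overexpressing arrays were the higher ones there, with a difference of 0.12 ± 0.08 (SE; interval -0.08 to 0.33; limma adjusted p = 0.580). Its other probe sets lay near the bottom of the scale, at means of 4.42 and 2.99 over the 4 arrays, and differed by 0.001 and 0.09. EED, which binds the methylated histone and stimulates the enzyme, gave 10.75 and 10.70 against 10.67 and 10.72. The groups overlapped, and the difference of -0.02 had an interval of -0.22 to 0.18. The dim probe set of EED, with a mean of 3.71, differed by 0.12 and overlapped too. The bright probe sets of EZH2 and EED thus had differences below 0 and that of SUZ12 above 0, none of which passed.

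The stretches just before the annotated starts of these 3 subunit genes are shown because CpG dinucleotides, set in capitals, are the substrate of the other enzymes described here. They are the 250 bases before the RefSeq start in build GRCh38.p14, written 5′ to 3′ on the strand of the gene.
EZH2, chr7:148884292-148884541, strand -: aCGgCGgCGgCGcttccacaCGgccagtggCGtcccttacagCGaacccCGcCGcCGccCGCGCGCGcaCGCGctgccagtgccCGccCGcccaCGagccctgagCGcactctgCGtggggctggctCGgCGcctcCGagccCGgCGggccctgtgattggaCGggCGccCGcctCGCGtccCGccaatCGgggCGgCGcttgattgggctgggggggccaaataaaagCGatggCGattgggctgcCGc
SUZ12, chr17:31936757-31937006, strand +: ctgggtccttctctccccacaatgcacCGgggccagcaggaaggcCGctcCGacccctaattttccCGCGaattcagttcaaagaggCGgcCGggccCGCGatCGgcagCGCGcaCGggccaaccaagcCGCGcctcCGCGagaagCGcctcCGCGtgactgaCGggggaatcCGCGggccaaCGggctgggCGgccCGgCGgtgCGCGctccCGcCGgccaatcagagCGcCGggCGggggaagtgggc
EED, chr11:86244503-86244752, strand +: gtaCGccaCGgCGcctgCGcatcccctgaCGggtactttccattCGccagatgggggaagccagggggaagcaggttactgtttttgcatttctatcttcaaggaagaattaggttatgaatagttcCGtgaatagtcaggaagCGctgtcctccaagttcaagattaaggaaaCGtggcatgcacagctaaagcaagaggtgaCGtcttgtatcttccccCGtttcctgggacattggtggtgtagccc
These windows hold 38, 34 and 11 CpG, beside a median of 11 over 35116 RefSeq windows of the same length. The 22 windows listed for the 10 genes, some of them at starts within the gene, as is the 1 listed for DNMT3B, were searched on both strands for 3 E2F-type motifs. TTTCCCGC occurred in windows of SUZ12 and UHRF1, TTTCGCGC in another window of UHRF1 and TTTGGCGC in none (2.32% of all windows hold at least 1 of the 3). The motif TTTGAA, which lies within CTTTGAA, occurred in windows of SUZ12 and TET2 (13.3% of all). Both windows held CTTTGAA (3.80% of all), and that of TET2 also held TTTGAA without the leading C. No member window held CTTTGAT or the homeodomain-type TAATTA, found in 2.26% and 4.35% of all windows. These are matches of letters and not shown to be bound.

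For the maintenance pair, UHRF1 and DNMT1, the groups overlapped. UHRF1, which recognises half-methylated DNA and recruits DNMT1, gave 9.98 and 10.01 with knock-down and 9.94 and 10.00 in the overexpressing arrays. The 4 values span 0.06, and the difference of -0.02 ± 0.08 (SE) had an interval of -0.22 to 0.18. DNMT1, the maintenance methyltransferase, gave 10.06 and 10.12 against 9.95 and 10.26, so that the overexpressing arrays lay on either side of the knock-down arrays. Its difference was 0.02 ± 0.12 (SE; interval -0.28 to 0.31; limma adjusted p = 0.983). Genes of S phase, when both act, were listed beside them, each by its brightest probe set. None of 26 passed in limma, where 2.86% of all 19775 genes did. At an unadjusted p under 0.05 there was 1, beside 14.6% of all probe sets, and the median difference was -0.01. The brightest of that list were TYMS, for thymidylate synthase, at -0.02, and RRM2, for a subunit of ribonucleotide reductase, at 0.23 (adjusted p = 0.285).

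The de novo methyltransferases held the largest differences among these genes, in opposite directions. DNMT3B gave 7.98 and 7.95 with knock-down and 7.48 and 7.59 in the overexpressing arrays. Both overexpressing arrays were lower, and the gap between the groups was wider than the spread within either. The means were 7.96 ± 0.02 and 7.54 ± 0.08 (SD, n = 2 arrays each), 1.35-fold higher in the knock-down arrays, with a difference of -0.43 ± 0.09 (SE; interval -0.64 to -0.22). This did not pass over all probe sets (limma adjusted p = 0.0878). It passed where 1 probe set per gene was tested and adjusted over 19775 genes (limma adjusted p = 0.0395), with the mean of each gene's probe sets (0.0246), with an intensity trend and robust moderation (0.0299) and without probe sets below the median level (0.0358). In those settings 848 to 1236 of all genes passed, beside 565 in the main fit. DNMT3B did not pass with arrays centred on the median (limma adjusted p = 0.0709) or after a second quantile normalization (0.0601). Nor did it pass with single-symbol probe sets only (0.0688) or with replicate number as a block (0.163). Leaving out any 1 array kept the difference between -0.49 and -0.37, with adjusted p of 0.337 to 0.462. DNMT3B had no other probe set here to set beside this one.

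The 3 probe sets of DNMT3A differed in level and in size of difference. The brightest, 222640_at, gave 8.27 and 8.35 against 8.27 and 8.49, which overlapped, with a difference of 0.07 ± 0.10 (SE; interval -0.19 to 0.33). Probe set 218457_s_at gave 5.47 and 5.96 with knock-down and 6.06 and 6.74 in the overexpressing arrays. The overexpressing arrays were higher, but arrays of 1 group differed by nearly as much as the groups did. Its difference was 0.69 ± 0.26 (SE; interval 0.06 to 1.31; limma adjusted p = 0.297), and it ran from 0.35 without overexpressing replicate 2 to 1.03 without overexpressing replicate 1. Probe set 244428_at gave 5.31 and 5.52 against 5.64 and 5.61, a difference of 0.21 ± 0.10 (SE; interval -0.03 to 0.46). DNMT3A has a long and a short form made from different starts, and which form each probe set reads was not analysed here. Averaged over the 3 probe sets, the difference was 0.32 (limma adjusted p = 0.238 over genes).

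**Figure D3:**
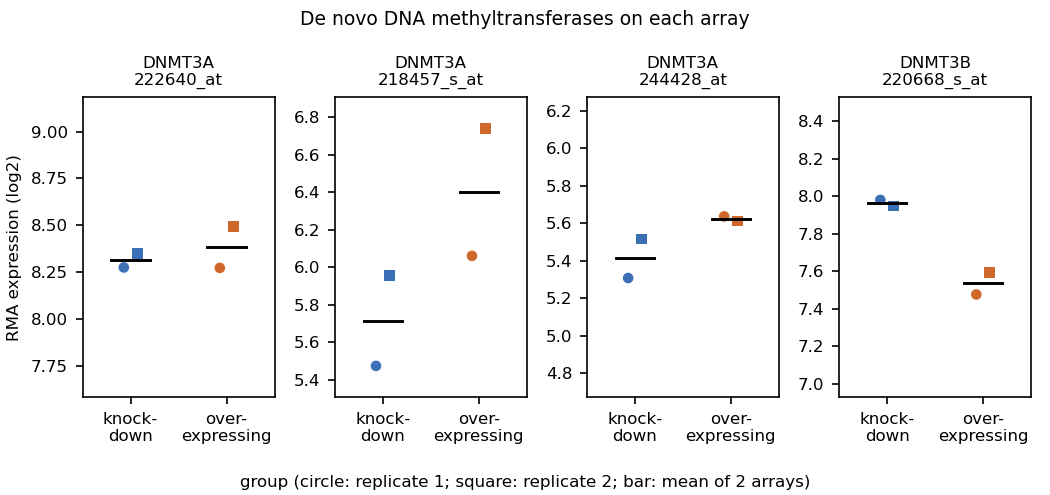
RMA log2 expression (vertical axis, each panel spanning an equal range) of the 3 probe sets of DNMT3A and the 1 of DNMT3B; blue is knock-down, orange is overexpressing, circles are replicate 1, squares replicate 2, and bars are means of 2 arrays. The DNMT3B groups stand 0.43 apart with close replicates, whereas the 218457_s_at probe set of DNMT3A shows a wider gap with widely spread replicates.

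Within each array the log2 value of DNMT3A on 222640_at minus that of DNMT3B was 0.29 and 0.40 with knock-down and 0.80 and 0.90 in the overexpressing arrays. The balance between the 2 transcripts therefore differed by 0.50 in favour of DNMT3A in the overexpressing arrays, without overlap. The difference was 1.11 with 218457_s_at and 0.64 with 244428_at. All 3 subtract the same DNMT3B values, which differed by -0.43, whereas DNMT3A on 222640_at differed by 0.07. They are therefore not separate results, and the 0.50 is mostly the difference of DNMT3B. In an exact two-sided permutation test each of these has p = 0.333, the smallest that 2 against 2 arrays allow. Any groups of this size that do not overlap give that p, so it adds nothing. As this pairing was formed after the values were seen, it is a description.

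The TET genes were dim. TET1 was below the median of every array on both of its probe sets, at 4.30 and 4.11 against 4.13 and 3.96 on 228906_at. The groups overlapped, with a difference of -0.16 ± 0.11 (SE; interval -0.42 to 0.11). The other, 214862_x_at, whose suffix marks probes that can match further sequences, had a mean of 2.85 and also differed by -0.16. TET2 was above the array medians on 227624_at alone, at 6.40 and 6.51 against 6.31 and 6.38. The overexpressing arrays were slightly lower there, by a difference of -0.11 ± 0.09 (SE; interval -0.32 to 0.11; limma adjusted p = 0.664). Its dim probe sets, at means of 3.91 and 2.48, differed by 0.10 and 0.12 in the other direction. No TET1 or TET2 probe set passed, and for those near the bottom of the scale a difference of transcript could be hidden by background.

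Partners and opponents of the members were then counted, each gene by its brightest probe set, where 2.86% of all 19775 genes passed (1.86% higher and 0.996% lower). For the unadjusted counts of these and later lists, the share was 14.6% over all probe sets. The share over genes was not analysed here. Among 11 further PRC2 and accessory genes none passed in limma (1 at an unadjusted p under 0.05), with a median difference of 0.01. RBBP7, a histone-binding subunit shared with other complexes, gave -0.001, and PHF19, a factor that brings PRC2 to chromatin, gave -0.13. Among 23 PRC1 genes none passed (3 at an unadjusted p under 0.05), with a median of -0.02. SCML2 differed by -0.20 and RING1, the ubiquitin ligase of the complex, by -0.08. Among 10 genes of histone H2A deubiquitination and H3K27 demethylation none passed (4 at an unadjusted p under 0.05). ASXL1, a partner of the deubiquitinase BAP1, differed by -0.05, and USP16, an H2A deubiquitinase, by 0.25 (adjusted p = 0.316). The median over all genes was -0.02.

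Singled out after the values were seen, the largest differences of a brightest probe set on these 3 Polycomb lists were those of MTF2, AUTS2 and KDM6A. MTF2, a Polycomb-like factor that guides PRC2 to CpG-rich DNA, gave 8.95 and 9.13 against 9.44 and 9.78. Its difference of 0.57 ± 0.14 (SE) had an adjusted p of 0.135 in limma, and its weaker 4 probe sets gave 0.23, -0.16, 0.02 and -0.07. AUTS2, a subunit of a variant PRC1, gave -0.48 (adjusted p = 0.145). KDM6A, which removes methyl groups from H3K27, gave 5.49 and 5.41 against 5.96 and 5.80. Its difference was 0.43 (limma adjusted p = 0.104), with 0.20, 0.24 and 0.06 on its weaker probe sets. None of these passed, although MTF2 did with an intensity trend and robust moderation (0.0291).

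On 3 lists of the DNA methylation pathway 1 of 31 measured genes passed (3.23%), near the share over all genes (2.86%). CXXC5, a CXXC zinc finger gene linked to TET2 control and to inhibition of the Wnt protein Dishevelled, rose in the overexpressing arrays on each of its 3 probe sets. The brightest gave 7.49 and 7.88 with knock-down and 8.85 and 9.12 in the overexpressing arrays. It rose 2.47-fold, by 1.30 ± 0.16 (SE; limma adjusted p = 0.0178). The other probe sets rose by 1.20 (adjusted p = 0.0255) and 0.92 (adjusted p = 0.0207). Without any 1 array the differences stayed at 0.77 or above, but none of the 3 probe sets passed (adjusted p of 0.127 to 0.351). The remaining 11 of the 12 demethylation genes did not pass. They include IDH2, a mitochondrial isocitrate dehydrogenase, singled out after its values were seen. It gave 9.19 and 9.46 against 8.60 and 8.70, a difference of -0.68 ± 0.11 (SE) just outside the threshold (limma adjusted p = 0.0533), and it passed when 1 probe set per gene was tested over genes (0.0237). TET3, the third TET gene, differed by 0.01.

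Of 11 cofactors of DNA methylation none passed in limma (1 at an unadjusted p under 0.05), with a median of 0.03. PCNA, the replication clamp that binds DNMT1, differed by 0.03, and AHCY, which clears the product of methylation, by 0.11. Of 9 genes for readers of methylated CpG none passed on the brightest probe set (2 at an unadjusted p under 0.05). The brightest were ZBTB33, also called Kaiso, at -0.09 and MBD4, a glycosylase that repairs deaminated methyl-CpG, at 0.46 (adjusted p = 0.122). ZBTB38 passed on a weaker probe set, with means of 5.48 against 5.98 (limma adjusted p = 0.0450), whereas its brightest differed by -0.17. That call was lost without any 1 array (adjusted p of 0.258 to 0.371).

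**Figure D4:**
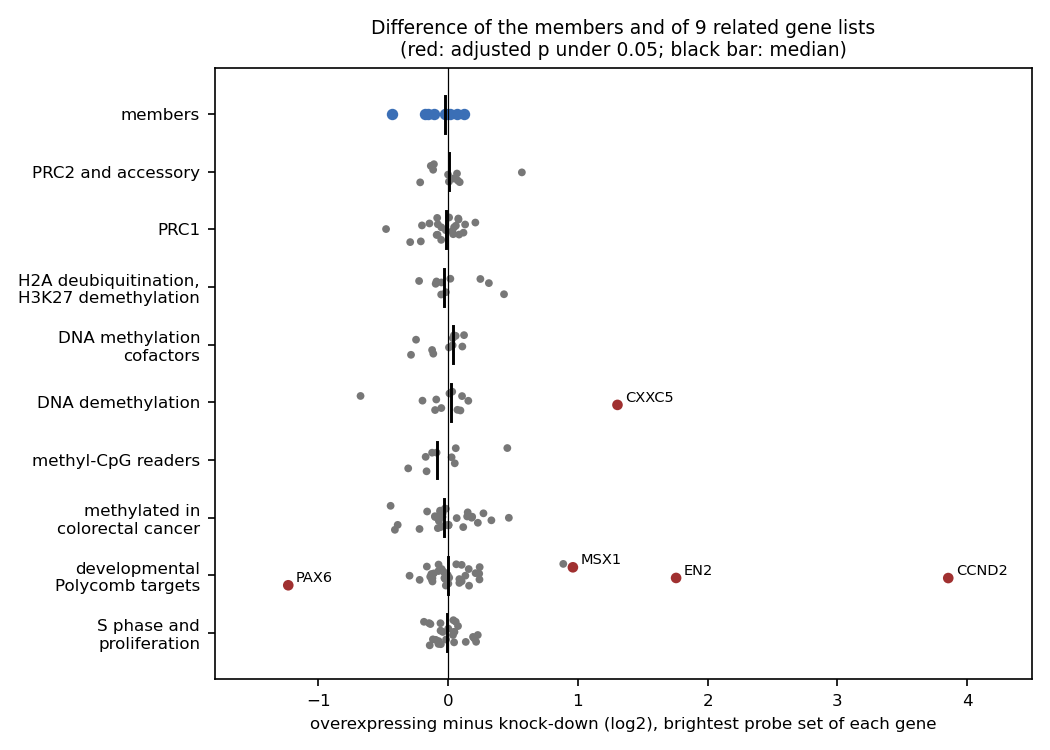
Difference between the groups (log2, overexpressing minus knock-down) of the brightest probe set of each gene, for the 9 measured members (blue) and 9 related lists; points are genes, spread vertically only for legibility, red points passed an adjusted p of 0.05 in limma and black bars are medians. CXXC5 passed among the demethylation genes, and CCND2, EN2, MSX1 and PAX6 on the list of developmental Polycomb targets, while the members sit between -0.43 and 0.12.

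Genes that these systems are known to silence were listed too, as a description and not as a readout of either system. Among 32 measured genes reported as methylated in colorectal cancer none passed on the brightest probe set in limma (6 at an unadjusted p under 0.05), with a median of -0.03. The brightest, VIM for vimentin and the tumour suppressor gene CDKN2A, differed by -0.02 and -0.06. On weaker probe sets, SDC2, for syndecan 2, rose by 1.02 and TIMP3, for a metalloproteinase inhibitor, by 0.53. Neither passed without any 1 array, with differences of 0.91 to 1.12 and of 0.49 to 0.57. The brightest probe set of SDC2 differed by -0.04 and its remaining one by 0.41. For TIMP3 the brightest gave 0.33 and the others 1.22 and 0.72. None of these other probe sets of SDC2 and TIMP3 passed. Among 37 genes listed as developmental regulators known as Polycomb targets, 3 rose and 1 fell (10.8%, beside 2.86% of all genes), and the median was -0.004. The list was chosen with earlier results of these data known and includes the cyclin gene CCND2. Its share is therefore a description. On a weaker probe set WT1, for a zinc finger factor of kidney development, rose by 1.33 (limma adjusted p = 0.00817; 0.144 to 0.229 without any 1 array), whereas its brightest differed by 0.24 (adjusted p = 0.338).

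CCND2, for cyclin D2, had the largest difference among the genes of this list that passed. It gave 4.15 and 4.73 against 8.24 and 8.35 (log2 difference 3.85; 1.26, 0.29 and 0.16 on its weaker probe sets). The homeobox gene EN2 rose from 4.40 and 4.82 to 6.37 and 6.36 (limma adjusted p = 0.00452). MSX1, another homeobox gene, rose 1.95-fold from 9.07 and 9.33 to 10.15 and 10.17, with 0.16 on a weaker probe set. PAX6, a regulator of eye and endocrine development, fell from 7.77 and 7.67 to 6.41 and 6.57 on its brightest probe set (limma adjusted p = 0.00362) and fell by 1.71 on the other. EN2, MSX1 and PAX6 did not pass without any 1 array (adjusted p of 0.0564 to 0.300), and CCND2 passed in 2 of the 4 cases. Neither histone marks nor DNA methylation were measured, so whether these genes carried either mark in SW480 was not tested.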

How the data were processed

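The 4 columns of the deposited table hold log2 expression for 54675 probe sets, which the authors made by RMA; the notes on processing that the submitters gave also name affy, without versions. Values were used as deposited. Probe sets were named from the annotation of the platform: 62 were controls, 41091 had 1 symbol, 1801 several and 11721 none, and 41037 of those with 1 symbol matched a RefSeq gene table (GRCh38.p14) by gene identifier.

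All 54613 other probe sets were fitted with limma 3.58.1 under R 4.3.3, using lmFit with group as the sole term, eBayes, two-sided, Benjamini-Hochberg over all of them, threshold 0.05, 2 residual degrees of freedom and a prior worth 3.91. The procedure was tested on simulated data drawn from the fitted model with independent noise. That checks the working of the procedure and not whether the model suits these arrays. Genes on lists were counted by the probe set with the highest mean. Members and lists were chosen with earlier results of these data known. Named genes were all member probe sets and, per list, up to 4 genes past the threshold or, where none passed, the 2 brightest; others were chosen after their values were seen. No member passed, so no gene with a like pattern was named. Promoter windows came from RefSeq. No group had the 4 samples an outlier test needs.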

Additional observations from a re-analysis of the deposited data

How the results depend on the processing

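None of the alternatives reversed a difference past the threshold. No member probe set passed under the replicate block, either scaling, the single-symbol set or a threshold of 0.01, or without any 1 array (0 to 0). DNMT3B made the count 1 with 1 probe set per gene, the mean of the probe sets, the intensity trend, the filter on dim probe sets (which left 9 of 17) and a threshold of 0.10. Among Polycomb list genes the count of 0 became 1 with the mean of the probe sets (USP16, 0.60) and 1 with the trend (MTF2). In the DNA methylation lists CXXC5 was the 1 call; the count was 2 with 1 probe set per gene, the mean, both scalings, the dim filter, the single-symbol set and a threshold of 0.10 (adding IDH2), 3 with the trend (adding MBD4 as well), 0 at a threshold of 0.01 and 0 to 0 without any 1 array. Differences near 0 changed sign: EED on 209572_s_at became 0.0464 and TET2 on 227624_at 0.0350 with the mean of the probe sets, and SUZ12 on 1566191_at became -0.0136 when arrays were centred and -0.0079 after a second quantile normalization. Without 1 array, SUZ12 on that probe set ran from -0.16 to 0.16, DNMT1 from -0.14 to 0.17, EED from -0.0511 to 0.0027, UHRF1 from -0.0467 to 0.0113 and DNMT3A on 222640_at from -0.0400 to 0.18. Over all genes 565 passed, but 944 with 1 probe set per gene, 1007 with the mean, 1236 with the trend, 848 with the dim filter, 925 at 0.10, 225 at 0.01 and 9 to 36 without 1 array, so the loss of a call there says little of the gene. Of the genes that passed, 65.1% were higher in the overexpressing arrays, but 53.2% with the trend, 52.4% with the dim filter, 77.5% with the block, 79.6% at 0.01 and 88.9% to 97.2% without 1 array. The replicate numbers are not said to mark a shared culture, and deviations of replicate 1 correlated at 0.146 between groups; with them as a block 231 genes passed, DNMT3B had an adjusted p of 0.163 and CXXC5 on its brightest probe set of 0.0275. The block ended the calls of MSX1 (0.0642), CXXC5 on 222996_s_at (0.0743), WT1 (0.0770), CCND2 on 200951_s_at (0.0823), TIMP3 (0.109) and ZBTB38 (0.114), and kept those of CCND2 and PAX6 on their brightest probe sets, EN2 and SDC2. The causes of these changes were not tested.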
